A study of Mus musculus with 41 samples.

Results

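The nuclear genes for the structural subunits of the mitochondrial respiratory chain and ATP synthase were examined as 1 set. A gene was a member when it was protein-coding and its symbol began with Nduf followed by a, b, c, s or v and a number (complex I), was Sdha, Sdhb, Sdhc or Sdhd (complex II), began with Uqcr (complex III), began with Cox and a number from 4 to 8 (complex IV), or began with Atp5 (complex V, the ATP synthase). The pattern matched 85 records of the mouse annotation, of which 2 carried the symbol Atp5o, and the one that reads on into the next locus was dropped. This left 84 members of the 21755 protein-coding genes on chromosomes 1 to 19 and X, with 37 in complex I, 4 in complex II, 8 in complex III, 18 in complex IV and 17 in complex V. The pattern itself uses no measured value.

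The study mapped lactylation of lysine 18 of histone H3 (H3K18la), an acyl mark derived from lactate, beside H3K27ac, H3K4me3 and H3K27me3 by CUT&Tag, a method that brings a transposase to antibody-bound chromatin and sequences the fragments it releases. H3K27ac and H3K4me3 are histone post-translational modifications (hPTMs) of active promoters, and H3K27me3 is the Polycomb mark of repressed ones. The 41 mouse samples formed 24 groups of 1 cell type and 1 hPTM, 17 with 2 samples and 7 with 1. Embryonic stem cells of the E14 line were grown in serum-lif (mESC-ser) or 2i-lif (mESC-2i) medium and went into the assay whole, while nuclei were used for everything else, namely primary myoblasts in growth medium (MB), myotubes differentiated from such myoblasts (MT), gastrocnemius muscle of adult female mice (GAS), macrophages grown from bone marrow (BMDM), macrophages sorted by CD45, CD11b, F4/80 and CD64 from muscle after ischemia (PIM), and white adipocytes (ADIPO). Their strain label was C57BL/6. The adipocyte nuclei were pulled down with streptavidin from fat of AdipoCre-NuTRAP mice, in which the adiponectin promoter drives the Cre that switches on the nuclear tag. GAS was whole tissue, so a peak there cannot be told apart between muscle fibres and the other cells of the muscle. All samples were labelled as controls, and sodium butyrate, a deacetylase inhibitor, was present in the buffers of every CUT&Tag reaction.

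The respiratory chain moves electrons from NADH and succinate through complexes I to IV to oxygen, pumps protons, and drives ATP synthesis by complex V. Most subunits are made in every cell, since mitochondria are needed nearly everywhere, and their genes are classical housekeeping genes with CpG-rich promoters. Several subunits of complex IV, cytochrome c oxidase, come in pairs of isoforms: Cox6a2, Cox7a1 and Cox8b are the heart and skeletal muscle forms of Cox6a1, Cox7a2 and Cox8a. Lactate, the source of H3K18la, is an end product of glycolysis.

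Replicates were pooled before peaks were called, so each group has 1 peak list and no replicate error, and no test was possible. A gene was called when a peak overlapped by at least 1 bp the 2000 bp on either side of any of its annotated start sites. Counts are given with 95% Wilson intervals, which cover counting error only, beside the share of all 21755 protein-coding genes called in the same list. The lists held 11002 to 36813 peaks on 22.6 to 197 Mb. The lists give only the signal inside peaks and no read totals, so read depth was not used here. The labelled cell types held their own markers, and several lists also held markers of other cell types. H3K18la lay on 4 of 4 stem cell promoters (Pou5f1, Nanog, Sox2, Zfp42) in both stem cell lists and on 0 in the other 6. It lay on 6 of 6 muscle promoters in MT and GAS and on 2 of 6 in MB (Myod1 and Des), on 5 of 5 macrophage promoters in BMDM and PIM, and on 5 of 5 adipocyte promoters in ADIPO. GAS also held peaks on 3 of 3 endothelial, 3 of 3 fibroblast and 2 of 5 macrophage promoters, MT on 3 of 5 macrophage promoters, and ADIPO on 2 of 6 muscle (Acta1 and Des), 2 of 3 fibroblast and 2 of 5 macrophage promoters. The satellite cell gene Pax7 was called in 0 lists of H3K18la. PIM held peaks on 2 of 5 adipocyte promoters (Adipoq and Pparg), BMDM on 1 (Adipoq), and MB and GAS on 1 each (Pparg). Of the 3 endothelial promoters, 2 were called in mESC-ser, BMDM and PIM, 1 in mESC-2i, MB and MT, and 0 in ADIPO. The macrophage gene Cd68 was called in both stem cell lists, and 1 of 3 fibroblast promoters was called in both stem cell lists and in MT. The part of such cells in the results was not tested.

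H3K18la lay on the promoters of the respiratory chain genes in every cell type, but on very different shares of them. In ADIPO 69 of 84 members were called (82.1%, interval 72.6 to 88.9) against 44.7% of protein-coding genes. In mESC-2i 56 were called (66.7%, 56.1 to 75.8) against 37.8%, and in GAS 51 (60.7%, 50.0 to 70.5) against 36.1%. PIM had 43 members (51.2%, 40.7 to 61.6) against 37.8%. Serum-grown stem cells and myotubes each had 39 members (46.4%, 36.2 to 57.0) against 33.4% in mESC-ser and 34.8% in MT. BMDM had 12 (14.3%, 8.37 to 23.3) against 18.5%, and MB had 4 (4.76%, 1.87 to 11.6) against 11.1%. The members thus stood above the protein-coding share in 6 of 8 cell types and below it in BMDM and MB, where both intervals include the protein-coding share. This direction did not hold when only the peaks of largest signal were kept, a cut that changes list size and selects on signal together. With the 5000 peaks of largest total signal in each list the members stood above in 3 of 8 lists. The mean difference turned from 14.8 to -0.192 points. With all lists trimmed to equal bases the members stood above in 1 of 8 by total signal (-2.20 points) and in 2 of 8 by maximum signal (-2.09 points). BMDM and MB were the lists called from 1 sample and on the fewest bases, 22.6 Mb in BMDM and 40.5 Mb in MB against 68.9 to 137 Mb in the others. The mean over the 8 cell types was 46.6% ± 25.9 (SD over cell types) for the members and 31.8% ± 11.2 for all protein-coding genes.

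H3K27ac and H3K4me3 were called at more of the members than H3K18la in every cell type where they were mapped. H3K27ac was called at 71 of 84 members in mESC-ser (84.5% against 40.2%), 73 in GAS (86.9% against 47.0%), 58 in BMDM (69.0% against 34.0%), 75 in PIM (89.3% against 48.8%) and 75 in ADIPO (89.3% against 46.1%). H3K4me3 was called at 66 in mESC-ser (78.6% against 48.8%), 78 in mESC-2i (92.9% against 61.8%), 81 in GAS (96.4% against 64.2%) and 79 in PIM (94.0% against 59.4%). The means were 83.8% ± 8.49 (SD, n = 5 cell types) for H3K27ac and 90.5% ± 8.07 (SD, n = 4 cell types) for H3K4me3. In BMDM, 12 members had H3K18la and 58 had H3K27ac. On average the members stood 14.8 ± 15.3 percentage points above protein-coding genes for H3K18la, 40.6 ± 3.60 for H3K27ac and 32.0 ± 2.07 for H3K4me3 (SD over cell types). These SDs cover different cell types, since MB and MT have a list for H3K18la alone among the active hPTMs. In the 4 cell types with H3K4me3, H3K18la covered 46.4 to 66.7% of the members and H3K4me3 78.6 to 96.4%. In the 5 with H3K27ac, H3K18la covered 14.3 to 82.1% and H3K27ac 69.0 to 89.3%.

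H3K27me3 was nearly absent from these promoters. It was called at 1 member in mESC-ser (1.19% against 27% of protein-coding genes), 4 in mESC-2i (4.76% against 22.5%), 1 in MB (1.19% against 12.5%), 6 in MT (7.14% against 20.1%), 5 in GAS (5.95% against 23.9%), 2 in BMDM (2.38% against 19.2%) and 6 in PIM (7.14% against 26.4%). The members lay below the protein-coding share in all 7 lists.

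**Figure D1:**
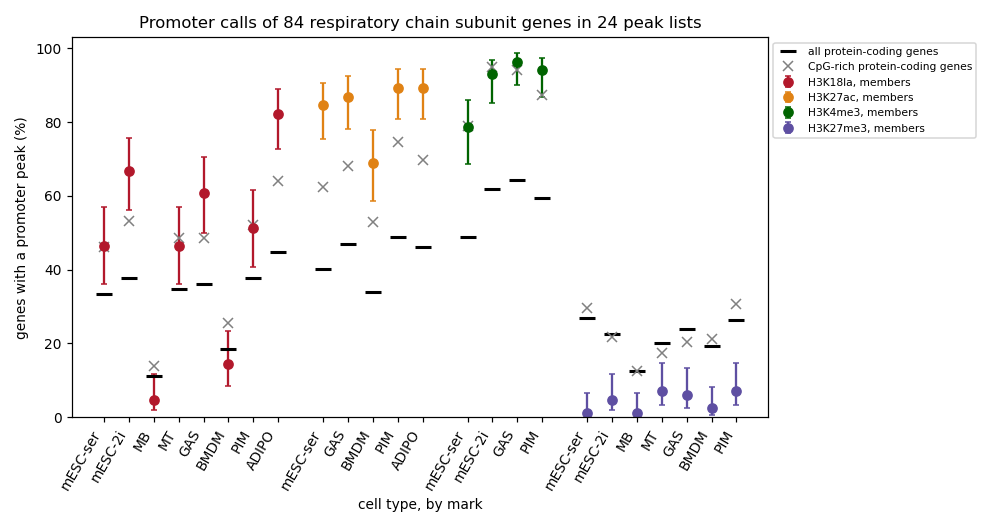
Share of genes with a promoter peak (y axis, %) in each of the 24 peak lists (x axis, cell types grouped by hPTM). Coloured points are the 84 members with 95% Wilson intervals, black dashes all protein-coding genes and grey crosses CpG-rich protein-coding genes. The H3K18la points run from 4.76% in MB to 82.1% in ADIPO, while those of H3K27ac stay between 69.0% and 89.3%.

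CpG-rich promoters are marked more often by all active hPTMs, so the members were also set beside such genes. A promoter was CpG-rich when a 500-bp window within 1000 bp of the reference start site had at least 55% GC and held CpG at 0.75 or more of the frequency its C and G content predicts. Of the 84 members 70 were CpG-rich (83.3%), against 50.0% of protein-coding genes. CpG-rich protein-coding genes had H3K18la in 44.0% on average over the 8 lists, and CpG-rich members in 49.1%. In mESC-ser the values were 45.7% of CpG-rich members against 46.0%, in MT 48.6% against 48.7% and in PIM 54.3% against 52.0%, whereas in ADIPO they were 88.6% against 64.0%, in GAS 65.7% against 48.5% and in mESC-2i 68.6% against 53.2%. In MB (5.71% against 13.9%) and BMDM (15.7% against 25.4%) the members were lower. For H3K27ac the average was 91.1% of CpG-rich members against 65.5% of CpG-rich genes, and for H3K4me3 96.4% against 88.8%. In mESC-ser, MT and PIM the CpG-rich members thus lay close to other CpG-rich genes for H3K18la, and in ADIPO, GAS and mESC-2i above them.

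In mESC-ser, GAS and PIM all 3 active hPTMs were mapped. H3K18la, H3K27ac and H3K4me3 lay together on 35 members in mESC-ser (41.7% against 23.9% of protein-coding genes), 49 in GAS (58.3% against 29.4%) and 42 in PIM (50.0% against 34.0%). With all lists of an hPTM trimmed to equal bases by total signal this turned, with a mean of 1.98% of members against 4.27% of protein-coding genes. H3K27ac and H3K4me3 without H3K18la were found on 29 members in mESC-ser (34.5% against 12.3%), 24 in GAS (28.6% against 14.8%) and 33 in PIM (39.3% against 14.2%). Among genes with both H3K27ac and H3K4me3, H3K18la was called at 54.7% of the members in mESC-ser (interval 42.6 to 66.3) and at 66.0% of all such genes. In GAS these shares were 67.1% (55.7 to 76.8) and 66.5%. In PIM they were 56.0% (44.7 to 66.7) and 70.6%. The share of all such genes lay inside the members' interval in mESC-ser and GAS and above it in PIM, and this difference between PIM and GAS was not tested. In ADIPO 67 of the 75 members with H3K27ac also had H3K18la (89.3%, against 86.0% of protein-coding genes), while in BMDM 11 of 58 did (19.0% against 48.2%).

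Members with H3K18la nearly always had the other active hPTMs. The exceptions to H3K27ac were Cox7b and Cox8b in mESC-ser, Ndufb11 and Uqcrc2 in GAS, Ndufa5 in BMDM, Cox4i2 in PIM, and Cox4i2 and Cox6b1 in ADIPO. The shares of H3K18la members that also had H3K27ac were 94.9% in mESC-ser, 96.1% in GAS, 91.7% in BMDM, 97.7% in PIM and 97.1% in ADIPO, against 77.9%, 84.3%, 88.4%, 90.7% and 88.5% of the protein-coding genes with H3K18la. All 51 members with H3K18la in GAS had H3K4me3 (94.3% of protein-coding genes with H3K18la). In mESC-ser 35 of 39 had it (89.7% against 83.8%), the exceptions being Cox6b1, Cox7a1, Cox7b and Cox8b. In mESC-2i 98.2% had it (against 91.4%), all but Cox7b, and in PIM 97.7% (against 95.7%), all but Cox4i2. No active hPTM was called at 9 members in mESC-ser (10.7%, against 43.9% of protein-coding genes), among them Uqcrfs1, the Rieske iron-sulfur protein of complex III, Ndufs4 and Ndufa9. In GAS the members without any were Cox4i2, Cox7b2 and Cox8c (3.57% against 32.0%), and in PIM Cox6a2, Cox7b2, Cox8b and Cox8c (4.76% against 38.7%).

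**Figure D2:**
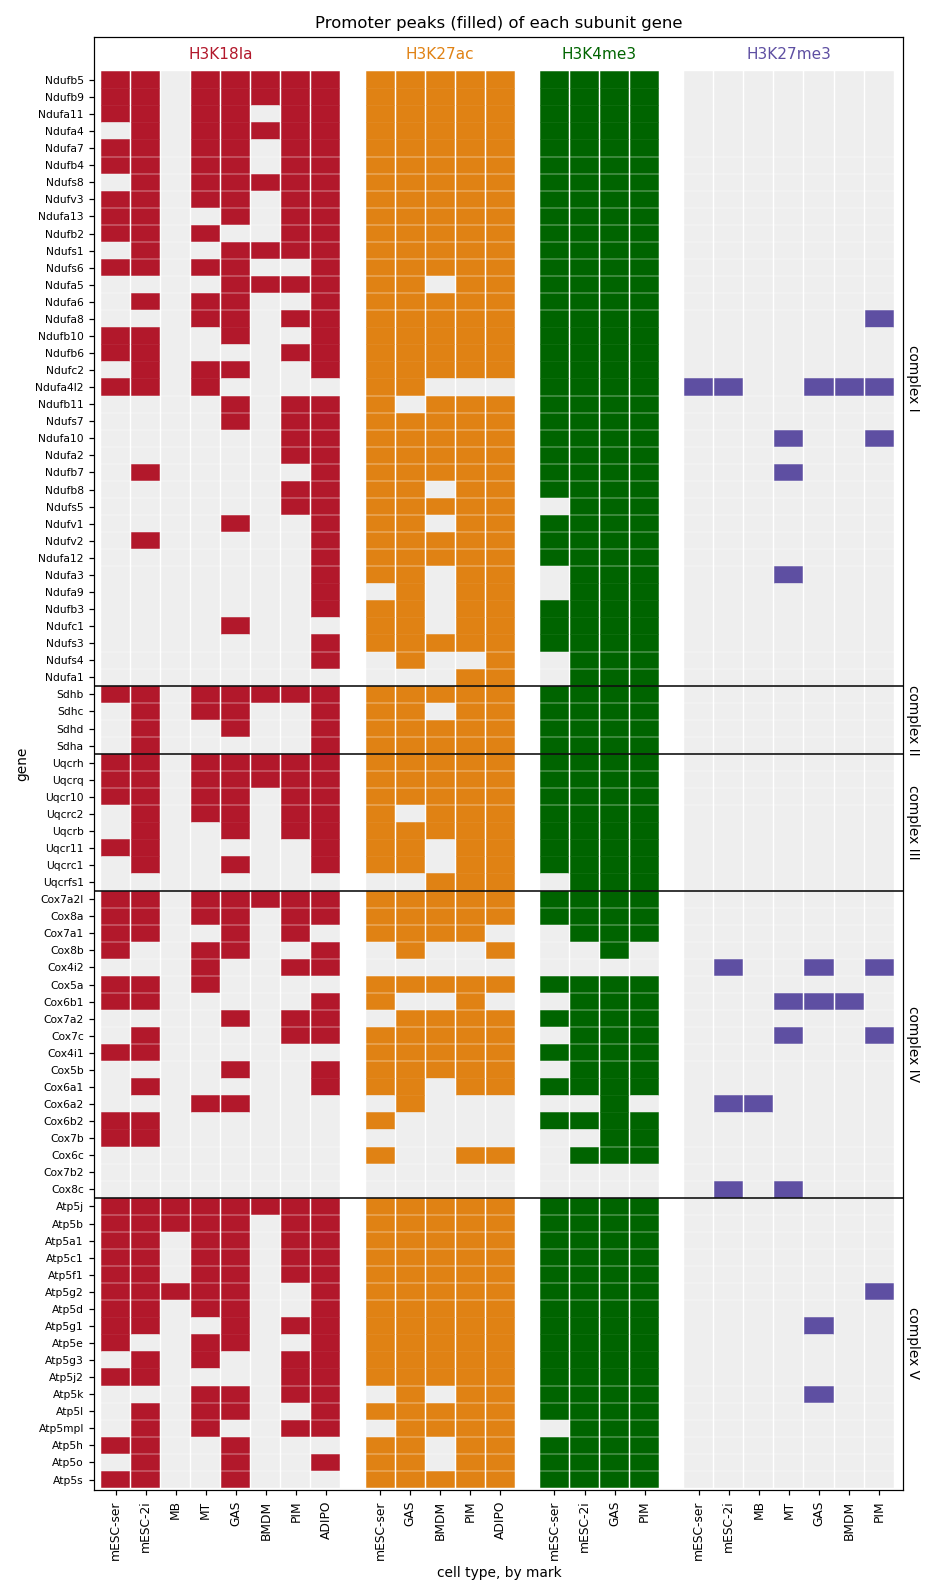
Promoter calls of the members reported by name (rows, grouped by complex and sorted by the number of cell types with H3K18la) in the 24 lists (columns, by hPTM); a filled cell is a call. H3K4me3 and H3K27ac columns are filled nearly throughout outside complex IV, H3K18la columns are sparsest in MB and fullest in ADIPO, and H3K27me3 is filled in 25 cells of 13 genes.

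The strength and shape of the peaks also differed between hPTMs. Each called gene was represented by its widest promoter peak, and the member peaks were ranked among those of all protein-coding genes called in the same list. By maximum signal, the median member peak stood at percentile 62.4 in mESC-ser, 64.9 in mESC-2i, 70.1 in PIM and 81.4 in GAS for H3K4me3. For H3K27ac it stood at 44.0 in BMDM, 55.9 in mESC-ser, 57.1 in PIM, 58.0 in ADIPO and 63.7 in GAS. For H3K18la the median percentile lay between 42.5 (mESC-2i) and 53.0 (BMDM), so that a called respiratory chain gene had a lactyl peak of ordinary height.

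Lactyl peaks on the members were on the narrow side. The median width was 2045 bp in MT against 2956 bp for all called protein-coding genes, 2050 against 2582 bp in GAS, 1382 against 1744 bp in PIM, 865 against 1016 bp in BMDM and 3555 against 3929 bp in mESC-ser. ADIPO differed less, with 1919 against 1982 bp, and in mESC-2i (6106 against 5780 bp) and MB (3024 against 2795 bp, 4 members) the members were wider. The mean log2 ratio over the 8 cell types was -0.18 ± 0.22 (SD). For H3K27ac the ratio was 0.01 ± 0.19 (n = 5 cell types), and the widest difference was in GAS, 6655 against 5434 bp.

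Ranking each list by total signal and keeping its 5000 largest peaks left the members with no excess of H3K18la: the mean was 8.18% of members against 8.38% of protein-coding genes. The counts fell to 0 in PIM, 1 in MT, 6 in GAS and 8 in ADIPO, and were highest in mESC-2i with 22 and mESC-ser with 14. H3K4me3 and H3K27ac stayed above protein-coding genes, with 50.3% against 24.9% and 28.3% against 16.1%, and the difference fell from 32.0 to 25.4 percentage points for H3K4me3 and from 40.6 to 12.2 for H3K27ac. In GAS 59 members (70.2%) lay under the 5000 largest H3K4me3 peaks. The shares of protein-coding genes given here, 24.9% for H3K4me3, are means over lists and not those of a single list.

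**Figure D3:**
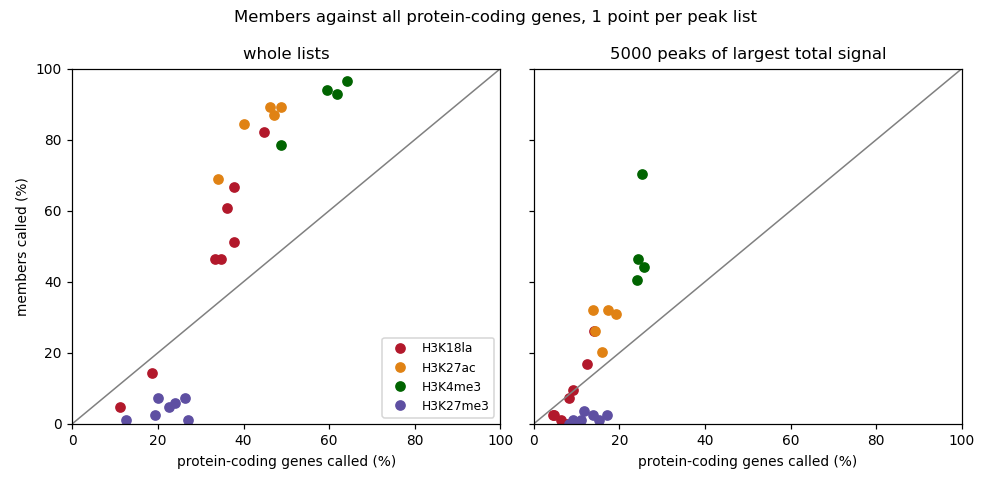
Members called (y axis, %) against protein-coding genes called (x axis, %), 1 point per peak list, for whole lists (left) and for the 5000 peaks of largest total signal (right); the grey line marks equal shares. In the right panel most H3K18la points lie near the line, the highest being mESC-2i, between 0% and 26.2% of members, and H3K4me3 points lie above it, between 40.5% and 70.2%.

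All 3 active hPTMs were centred near the start site. Averaged over cell types, H3K18la covered the reference start site of 42.1% of the members, the base 500 bp upstream in 34.4%, the base 500 bp downstream in 37.2% and the base 2000 bp downstream in 9.23%. H3K4me3 covered 89.6% at the start, 89.9% at 500 bp and 84.8% at 1000 bp downstream, but 48.2% at 1000 bp upstream, so it reached further into the gene. H3K27ac covered 80.7% at the start and 50.0% at 1000 bp downstream. In GAS the H3K18la share fell from 54.8% at the start to 17.9% at 1000 bp upstream, close to the 17.0% of protein-coding genes there. It was higher at 2000 bp upstream (16.7% against 8.95%) and 1000 bp downstream (32.1% against 18%), and lower at 2000 bp downstream (8.33% against 12.4%). At 1000 bp upstream the members stood higher in mESC-2i (53.6% against 27%), ADIPO (32.1% against 20%), mESC-ser (29.8% against 19.9%) and MT (20.2% against 17.2%), and lower in PIM (10.7% against 14.2%), MB (2.38% against 4.24%) and BMDM (2.38% against 3.41%).

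**Figure D4:**
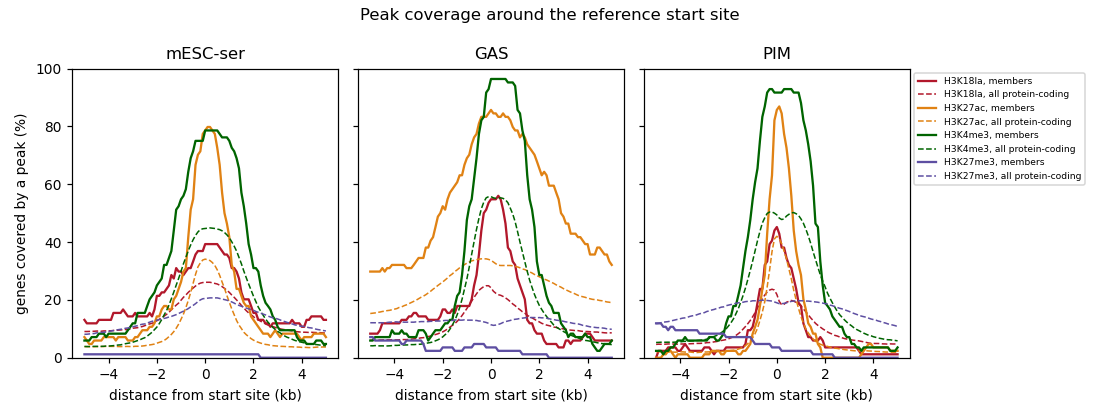
Share of genes covered by a peak (y axis, %) by distance from the reference start site (x axis, kb, negative upstream) in mESC-ser, GAS and PIM; solid lines are the 84 members, dashed lines all protein-coding genes, colours the hPTMs. At the start site H3K18la covered 39.3%, 54.8% and 45.2% of the members in the 3 cell types, and H3K4me3 78.6%, 96.4% and 91.7%.

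Over all lists complex IV had the lowest share for each active hPTM. Over all 8 lists H3K18la was called in 60.3% of combinations of a complex V gene and a cell type (82 of 136), 54.7% for complex III (35 of 64), 50.0% for complex II (16 of 32), 44.6% for complex I (132 of 296) and 33.3% for complex IV (48 of 144), the last close to the mean of 31.8% over all protein-coding genes. H3K27ac was called in 94.1% for complex V, 90.3% for complex I and 56.7% for complex IV, and H3K4me3 in 98.5%, 96.6% and 65.3%. The mean shares over all protein-coding genes were 43.2% for H3K27ac and 58.5% for H3K4me3. H3K27ac was called in 19 of 20 combinations for complex II and in 87.5% for complex III, and H3K4me3 in 100% and 96.9%. In BMDM, where 18.5% of protein-coding genes had H3K18la, it was called at 7 of 37 complex I members (18.9%), 1 of 17 of complex V (5.88%) and 1 of 18 of complex IV (5.56%). Only 10 of the 18 complex IV genes were CpG-rich, against 34 of 37 in complex I and 16 of 17 in complex V. The combinations share genes and lists and are not independent. In ADIPO the complex I share was 91.9% (34 of 37) and the complex IV share 50.0% (9 of 18), beside 44.7% of protein-coding genes, while in mESC-ser they were 35.1% and 50.0%, beside 33.4%. The 7 core subunits of complex I, which carry its redox centres, had H3K18la in 48.2% on average, with Ndufs8 called in 6 cell types, Ndufs1 in 5 and Ndufs3 in 1.

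H3K18la was called in a median of 4 of 8 cell types for the members and 2 for protein-coding genes. Of the members 5 had it nowhere (5.95%, against 30.3% of protein-coding genes), while 2, Atp5j among them, had it in all 8 (2.38%, against 2.69%). Both H3K27ac and H3K4me3 were called in every list at 49 members (58.3%, against 19.8% of protein-coding genes), and among them H3K18la was found in 1 to 8 cell types. The median was 5, the same as for all protein-coding genes with both in every list. Ndufa12 and Ndufs3, for example, carried both other active marks in every list and H3K18la only in ADIPO.

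Atp5j, coupling factor 6 of ATP synthase (chromosome 16, start at 84835625), shares its promoter with Gabpa, an ETS factor that regulates respiratory genes, whose start lies 501 bp into Atp5j. H3K18la covered the Atp5j start itself in mESC-ser, mESC-2i, MT and ADIPO. In MB, PIM, GAS and BMDM the nearest peak began 203, 203, 186 and 38 bp downstream of it, on the Gabpa side. To which of the 2 starts a peak belongs was not tested. Altogether 35 members had the start of another protein-coding gene in their promoter, 20 of them in complex I and 1 in complex IV. H3K18la was called in 55.4% of their combinations with a cell type and in 40.3% of those of the other 49 members. Among genes with no other start in the promoter the members stood on average 11.6 points above protein-coding genes, and among all genes 14.8 points. Whether the gap between shared and unshared promoters is particular to the members was not tested.

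The 5 members with no H3K18la in any list were Cox6c, Ndufa1, Uqcrfs1, Cox7b2 and Cox8c. Cox6c, Ndufa1 and Uqcrfs1 encode subunits found in most tissues, and each had H3K4me3 in mESC-2i, GAS and PIM and H3K27ac in PIM and ADIPO. Uqcrfs1 had H3K27ac also in BMDM, and its nearest H3K18la peak was 3092 bp from the start in ADIPO and 15416 bp away in PIM. Cox7b2 and Cox8c are testis isoforms. Cox7b2 had no peak of any hPTM, with the nearest H3K18la peak at least 618318 bp from its start. Cox8c had H3K27me3 alone, in mESC-2i and MT.

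A further 7 members had H3K18la in 1 cell type (8.33%, against 12% of protein-coding genes). For Ndufa3, Ndufa9, Ndufa12, Ndufb3, Ndufs3 and Ndufs4 this was ADIPO, and for Ndufc1 it was GAS. Of all protein-coding genes with H3K18la in 1 cell type, 37.8% had it in ADIPO, the list that held the most genes. Ndufb3 had the widest H3K18la promoter peak of all members in ADIPO, 5645 bp, and shares its promoter with Fam126b. Peaks of the other 5 ADIPO genes were between 1207 bp (Ndufs3) and 1968 bp (Ndufa9) wide. Of the 14 members with H3K18la in 2 cell types (16.7%, against 13.3% of protein-coding genes), Ndufa2, Ndufa10, Ndufb8 and Ndufs5 had it in PIM and ADIPO, Cox5b and Ndufv1 in GAS and ADIPO, and Cox6a1, Ndufb7, Ndufv2 and Sdha in mESC-2i and ADIPO. ADIPO was thus among the cell types of 10 of these 14 genes (71.4%, against 39.5% of such protein-coding genes).

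The widest lactyl peaks were found in stem cells. Atp5d, the delta subunit of ATP synthase, lay under a peak of 32730 bp in mESC-ser and 40620 bp in mESC-2i, which also spanned the start of its neighbour Cbarp. Next in mESC-ser came Ndufa4l2 (21749 bp) and Atp5h (14074 bp), and in mESC-2i Ndufs1 (38900 bp) and Cox5a (32005 bp). The Atp5h peak began 3531 bp downstream of the reference start and did not cover it. The wide Ndufs1 peak began 30377 bp downstream, and a smaller peak covered the start. In GAS the widest peaks lay at Ndufb10 (12201 bp), Ndufb9 (8993 bp) and Sdhb (8744 bp), the first of them ending 1564 bp upstream of the Ndufb10 start beside a smaller peak over it, and in PIM at Sdhb (5152 bp) and Uqcrh (3852 bp). In myotubes Atp5k (6891 bp) and Cox4i2 (5867 bp) were among the widest, and in ADIPO Ndufb3 and Atp5g2 (5366 bp). In BMDM Uqcrh (2128 bp) and Atp5j (1444 bp) led. Sdhb, the iron-sulfur subunit of succinate dehydrogenase, was called in 7 cell types, all with its start covered, and no other gene starts in its promoter.

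The 4 members with H3K18la in MB included Atp5g2 (4451 bp), Atp5b (1598 bp) and Atp5j (1161 bp). The MB peak at Atp5b, the catalytic beta subunit, began 7496 bp downstream of the reference start, past the annotated end of the gene, covered none of its annotated starts and overlapped by 273 bp the window of another transcript's start, whereas the Atp5g2 peak covered its reference start. All 4 were also called in MT, and MT added 35 members (41.7% of the 84, against 24.6% of protein-coding genes). Of all protein-coding genes called in MB, 91.8% were also called in MT. Between MT and GAS 33 members were shared, which was 84.6% of the MT members and 64.7% of the GAS members, with 6 called in MT only (Atp5g3, Atp5mpl, Cox4i2, Cox5a, Ndufa4l2 and Ndufb2) and 18 in GAS only. For all protein-coding genes these shares were 70.7% of MT and 68.1% of GAS genes. Called in MT only were 7.14% of members against 10.2% of protein-coding genes, and in GAS only 21.4% against 11.5%. All 12 BMDM members were called in PIM, which had 31 more (36.9% of the 84, against 20.6% of protein-coding genes). For H3K27ac all 58 BMDM members were called in PIM, which had 17 more (20.2% against 15.5%). Of all protein-coding genes called in BMDM, 92.8% for H3K18la and 97.7% for H3K27ac were also called in PIM, so this nesting was general. In stem cells 37 members were shared by both media for H3K18la (44.0%, against 28.6% of protein-coding genes). In mESC-2i only 19 were called (22.6% against 9.19%), and in mESC-ser only 2, Atp5e and Cox8b (2.38% against 4.79%). For H3K4me3 66 were shared (78.6% against 48.2%), 12 were called in mESC-2i only (14.3% against 13.6%) and 0 in mESC-ser only (0.561% of protein-coding genes). The mESC-2i lists held 94.9% of the mESC-ser members for H3K18la and 100% for H3K4me3, against 85.7% and 98.9% of protein-coding genes. The smaller list was the serum list for both hPTMs (82.4 against 128 Mb for H3K18la and 40.9 against 49.8 Mb for H3K4me3), and the part of list size in these differences was not tested.

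The muscle isoforms of cytochrome c oxidase were compared with their ubiquitous counterparts. In GAS Cox6a2, Cox7a1 and Cox8b all had H3K18la, H3K27ac and H3K4me3 over the start, and none had H3K27me3. Over MB, MT and GAS H3K18la was called in 5 of 9 combinations of a muscle isoform and a cell type, and over the other 5 cell types in 5 of 15. The muscle lists held 11.1%, 34.8% and 36.1% of protein-coding genes and the other 5 lists 18.5 to 44.7%. The 5 muscle calls fell to 1 with the 5000 largest peaks, Cox8b in GAS, and to 0 with equal bases by total or maximum signal. Outside muscle, Cox7a1 in both stem cell lists and Cox8b in mESC-ser and ADIPO stayed called with the 5000 largest peaks. With equal bases Cox7a1 in mESC-2i and Cox8b in ADIPO stayed called. In the whole lists the ubiquitous Cox6a1, Cox7a2, Cox7a2l and Cox8a had H3K18la in 5 of 12 combinations in muscle and 13 of 20 elsewhere. None of the 7 genes was called in MB, and no other protein-coding gene starts in any of these promoters.

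Cox6a2 (chromosome 7, 128205435 to 128206387 on the minus strand in GRCm38) was called for H3K18la only in MT, with a peak of 1744 bp, and GAS, with one of 3988 bp. H3K27ac (4166 bp) and H3K4me3 (2770 bp) lay on it in GAS alone. In mESC-2i an H3K27me3 peak of 10226 bp covered its start, and in MB one of 1917 bp began 1404 bp downstream. It was called for an active hPTM in MT and GAS and in no other list.

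Cox8b was called for H3K18la in MT (4221 bp), GAS (4955 bp), ADIPO (5287 bp) and mESC-ser (8681 bp). The mESC-ser peak ended 916 bp upstream of the start and did not cover it, and neither H3K27ac nor H3K4me3 was called there in mESC-ser. In ADIPO the peak covered the start, stood at percentile 88.6 by width and 87.9 by height, and overlapped an H3K27ac peak of 4884 bp, which also covered the start. H3K4me3 was called in GAS (2434 bp) and in no other list. Cox8b and Cox7a1 are known as genes of brown as well as muscle mitochondria.

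Cox7a1 was called in GAS (3300 bp), PIM (1052 bp), mESC-ser (7837 bp) and mESC-2i (28730 bp) and not in MT, where Cox6a2 and Cox8b were. The mESC-2i peak stood at percentile 96.0 by width and 99.7 by height and ran 23738 bp downstream of the start. H3K27ac covered the start in mESC-ser, GAS, BMDM and PIM, and was not called in ADIPO. H3K4me3 was called in mESC-2i, GAS and PIM.

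Among the ubiquitous forms, Cox7a2l, a subunit-like factor of respiratory supercomplexes, had H3K18la in 7 cell types with peaks of 650 bp in BMDM to 2486 bp in GAS, and Cox8a in 6, from 1018 bp in PIM to 15678 bp in mESC-2i. Cox7a2 was called in GAS (1173 bp), PIM (1206 bp) and ADIPO (1534 bp). Cox6a1 was called in mESC-2i (8266 bp) and ADIPO (1379 bp), and in neither MT nor GAS. So in MT and GAS the muscle isoform Cox6a2 had the lactyl mark and its ubiquitous partner Cox6a1 did not, although Cox6a1 had H3K27ac (5730 bp) and H3K4me3 (3818 bp) in GAS. In GAS the peaks of the muscle isoforms, 3300 to 4955 bp, were wider than those of Cox7a2, Cox8a and Cox7a2l, 1173 to 2486 bp.

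**Figure D5:**
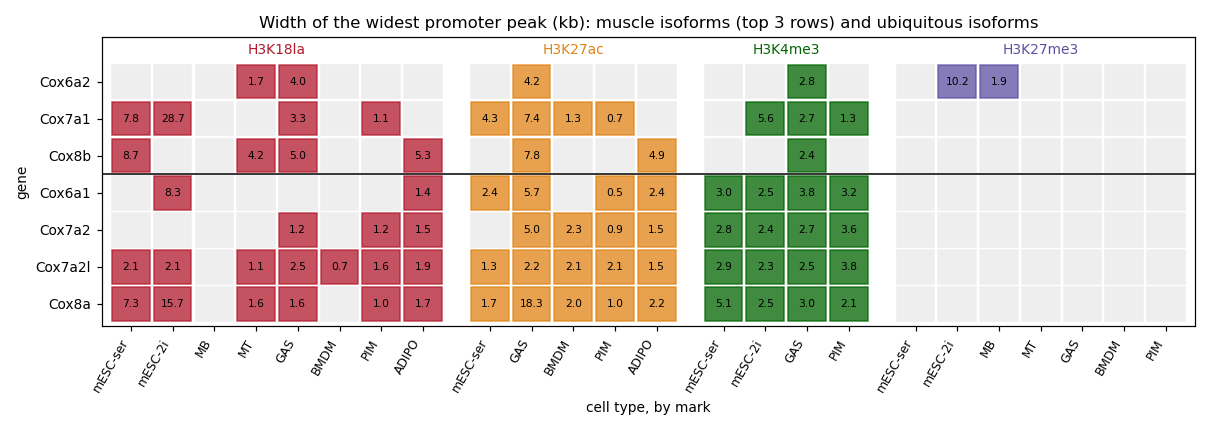
Width in kb of the widest promoter peak of the 3 muscle isoforms (top rows) and 4 ubiquitous isoforms (bottom rows) of cytochrome c oxidase in each list (columns, by hPTM); grey cells have no peak. All 3 muscle isoforms carry the 3 active hPTMs in GAS, the 4 ubiquitous forms carry H3K4me3 in all 4 lists, and H3K27me3 is called only at Cox6a2.

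The promoter sequences of 4 of these genes are shown because the isoforms also differ in base composition. They run from 250 bases before to 50 bases after the RefSeq start in GRCm38.p6, in the direction of the gene. Capitals mark matches, on either strand, to CCGGAAG (the core bound by ETS factors such as GABPA), GCGCATGC (the NRF1 core), CAGCTG (an E-box) or TATAAA (the TATA box). The muscle pair comes first, with Cox7a1 at chr7:30183921-30184220 on the plus strand and Cox8b at chr7:140900397-140900696 on the minus strand. The ubiquitous forms Cox7a2 and Cox7a2l held no match and are not shown. The ubiquitous pair shown, chosen because it held matches, is Cox6a1 at chr5:115348909-115349208 and Cox8a at chr19:7217567-7217866, both on the minus strand.
Cox7a1: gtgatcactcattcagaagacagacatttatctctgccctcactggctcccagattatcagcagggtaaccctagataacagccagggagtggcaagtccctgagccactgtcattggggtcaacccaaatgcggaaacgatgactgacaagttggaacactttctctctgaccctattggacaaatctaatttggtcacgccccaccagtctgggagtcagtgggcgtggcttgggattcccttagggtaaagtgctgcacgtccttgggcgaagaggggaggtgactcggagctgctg
Cox8b: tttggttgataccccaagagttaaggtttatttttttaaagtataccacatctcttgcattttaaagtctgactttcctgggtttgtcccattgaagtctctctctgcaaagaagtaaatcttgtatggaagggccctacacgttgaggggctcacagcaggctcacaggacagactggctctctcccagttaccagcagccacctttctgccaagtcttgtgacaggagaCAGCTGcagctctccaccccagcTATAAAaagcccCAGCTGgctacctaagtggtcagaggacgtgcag
Cox6a1: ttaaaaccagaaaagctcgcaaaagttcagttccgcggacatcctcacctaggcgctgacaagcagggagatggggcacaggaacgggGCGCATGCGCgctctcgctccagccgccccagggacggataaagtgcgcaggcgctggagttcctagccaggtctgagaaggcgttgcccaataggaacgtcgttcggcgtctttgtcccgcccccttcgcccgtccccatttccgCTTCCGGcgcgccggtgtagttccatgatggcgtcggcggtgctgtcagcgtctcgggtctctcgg
Cox8a: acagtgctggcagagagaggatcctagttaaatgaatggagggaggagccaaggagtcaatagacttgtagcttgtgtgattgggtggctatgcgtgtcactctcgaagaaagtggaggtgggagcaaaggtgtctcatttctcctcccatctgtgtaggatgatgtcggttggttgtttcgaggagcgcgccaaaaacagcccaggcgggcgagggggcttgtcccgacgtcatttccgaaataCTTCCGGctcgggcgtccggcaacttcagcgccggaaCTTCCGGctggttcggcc

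The ratio of observed to predicted CpG in the 500 bp around the start was 0.195 for Cox6a2, 0.315 for Cox7a1 and 0.317 for Cox8b, and 0.839 to 0.982 for the 4 ubiquitous forms. None of the muscle isoforms was CpG-rich, and all 4 ubiquitous ones were. Cox8b held 2 E-box matches, beginning 19 bases before and 16 bases after the RefSeq start, and 1 TATAAA match beginning 4 bases after it, which is not the usual upstream place of a TATA box. Cox8a held 2 ETS cores, Cox6a1 1 ETS core and 2 overlapping matches to NRF1, and Cox7a1 none of the motifs searched. An entry was found for 68 of the 84 members, 2 of them through a synonym. The NRF1 core was present in 14.7% of these and in 2.71% of all 32851 promoters of the table, the ETS core in 22.1% and 8.86%, the YY1 core GCCATNTT in 22.1% and 6.05%, and the ERR element TCAAGGTCA in 2.94% and 0.423%. E-boxes were found in 8.82% and 16.3%, and TATAAA in 10.3% and 13.6%. These shares set 1 entry per member beside every entry of the table and were not matched for CpG content. CpG-rich promoters made up 83.3% of the members and 50.0% of protein-coding genes, and the NRF1 and ETS cores each hold a CpG. The part of CpG content in these differences was not tested. A match describes the letters and not binding.

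Other members with restricted or paired forms varied as widely. Cox4i1, the common form of subunit 4, had H3K18la only in the stem cells (10448 bp in mESC-ser and 6686 bp in mESC-2i), although H3K27ac was called in all 5 lists and H3K4me3 in all 4. Its nearest H3K18la peak was 15626 bp from the start in GAS and 8177 bp away in ADIPO. Cox4i2, the lung and hypoxia form, had no H3K27ac and no H3K4me3 in any list. Its H3K18la peaks in MT (5867 bp), PIM (1855 bp) and ADIPO (4687 bp) began 1201, 1528 and 2140 bp downstream of the start, inside the gene, and H3K27me3 covered the start in mESC-2i, GAS and PIM. Lactylation and H3K27me3 were therefore both called at the Cox4i2 promoter in PIM, at different positions.

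Ndufa4, counted by its name in complex I although it is known as a subunit of complex IV, had H3K18la in 6 cell types. Its hypoxia-induced relative Ndufa4l2 had it in mESC-ser (21749 bp), mESC-2i (14945 bp) and MT (2034 bp, ending 1258 bp upstream of the start), and was the member with the most H3K27me3, in mESC-ser, mESC-2i, GAS, BMDM and PIM. In mESC-ser, H3K18la, H3K4me3 (15989 bp) and H3K27me3 (13830 bp) all covered its start. The testis form Cox6b2 was called in mESC-ser and mESC-2i only, with peaks of 1877 and 2207 bp. Cox6b1 was called in mESC-ser, mESC-2i and ADIPO, and in MT, GAS and BMDM an H3K27me3 peak ended 1904, 1585 and 1961 bp upstream of its start. Cox7b on chromosome X had H3K18la only upstream of the start in both stem cell lists, ending 1118 bp away in mESC-ser and 334 bp away in mESC-2i. The other X-linked members were Ndufa1, with none, and Ndufb11, called in GAS, PIM and ADIPO.

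Atp5g1, Atp5g2 and Atp5g3 encode the same mature c subunit of the ATP synthase rotor from different precursors. All 3 had H3K27ac and H3K4me3 in every list. H3K18la lay on Atp5g2 in mESC-ser, mESC-2i, MB, MT, GAS and ADIPO, with peaks of 4201 to 6503 bp. Atp5g1 was called in mESC-ser, mESC-2i, GAS, PIM and ADIPO with peaks of 1187 to 6772 bp, and Atp5g3 in mESC-2i, MT, PIM and ADIPO with peaks of 951 to 6382 bp. Thus in MT Atp5g2 and Atp5g3 were called, in GAS Atp5g1 and Atp5g2, in PIM Atp5g1 and Atp5g3, and in BMDM none.

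The 25 H3K27me3 calls fell on 13 members: Ndufa4l2 in 5 lists, Cox4i2 and Cox6b1 in 3, Cox6a2, Cox7c, Cox8c and Ndufa10 in 2, and Atp5g1, Atp5g2, Atp5k, Ndufa3, Ndufa8 and Ndufb7 in 1. Complexes II and III had 0. The peak covered the reference start in 11 of the 25, against 283 of 313 for H3K18la calls. In MT the start was covered at 0 of 6 genes, and the peaks at Cox6b1, Cox7c, Ndufa3, Ndufa10 and Ndufb7 ended 1369 to 1904 bp upstream. In GAS the covered starts were those of Ndufa4l2, Cox4i2 and Atp5g1, and in PIM those of Ndufa4l2, Cox4i2 and Ndufa10. Members without CpG-rich promoters had H3K27me3 in 13.3% of combinations and those with them in 2.45%. Both lay below the mean shares over the same lists of CpG-rich protein-coding genes, 21.9%, and of all protein-coding genes, 21.7%.

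Genes around the respiratory chain were read in the same way. The 6 subunits and carriers that the name pattern leaves out had H3K18la in 18.8% on average over the 8 cell types: Cycs, somatic cytochrome c, in 4 cell types, Atpif1 in 3, Cyc1 in 2, and Ndufab1, Usmg5 and the testis cytochrome c gene Cyct in 0. The 49 assembly factors averaged 44.4%, the 13 enzymes and subunits of the TCA cycle 52.9% and the 78 mitochondrial ribosomal proteins 41.7%, beside the 46.6% of the members and the 31.8% of all protein-coding genes, which the left-out subunits did not reach. For H3K27ac these lists averaged 66.7%, 81.6%, 89.2% and 79.7%, against 43.2% of protein-coding genes. The 9 regulators of respiratory genes averaged 62.5% for H3K18la and 14.3% for H3K27me3, the latter against 21.7% of protein-coding genes. Gabpa was called for H3K18la in all 8 cell types, Pprc1 in 7 and Nrf1 in PIM alone, while Ppargc1a, the coactivator PGC-1α, was called in MB, MT, GAS, PIM and ADIPO.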

How the data were processed

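CUT&Tag data of 41 mouse samples were used as 24 peak lists, 1 for each cell type and hPTM. Per the labels and the submitters' processing notes, the authors checked and trimmed reads (FastQC 0.11.0, Trim Galore 0.6.6), aligned them to mm10 with Bowtie2 2.4.4, processed them with SAMtools 1.13 and bedtools 2.30, joined the replicates and called peaks with SEACR 1.3 on the pooled signal, keeping the top 1% of regions. The study removed peaks in blacklisted regions before its own analyses, and whether the deposited lists precede that step, and whether duplicates were removed, is not given in the sources used here. The deposited columns hold each peak's position, its total signal and its maximum signal, which were not scaled for depth and were compared only within a list. Replicate error is therefore unknown, and joining replicates lets the deeper library weigh more. In the study's quality control, 1 of the adipocyte H3K27ac libraries had far fewer reads than its partner. With 1% of regions kept, list size also moves with how the signal is spread.

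Promoters were 2000 bp on either side of every transcript start of GENCODE M21 (GRCm38). The reference start is the one from which distances are given. Percentiles and medians use the widest peak of each called gene. CpG content came from the GRCm38.p6 genome and promoter sequences from RefSeq. Python 3.11.15, numpy 2.4.6, pandas 2.3.3, scipy 1.17.1 and matplotlib 3.10.9 were used, and the calls were tested on simulated data and against bedtools 2.31.1. Full values were given for the oxidase isoforms, the other paralogous or tissue-restricted members, members lacking H3K18la in 6 or more cell types, members with H3K27me3, and the 3 widest H3K18la peaks per cell type, except 1 member that is counted but not reported here. Other genes named as examples were chosen after their values were seen. The members, the gene lists and the markers were chosen with earlier results of these data known. Alternatives changed the promoter width, the overlap, the starts used, the number of peaks or bases per list, and the members with shared promoters. Sequences of members on chromosome 18 were not printed.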

Additional observations from a re-analysis of the deposited data

Results flagged for a closer look

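The share of members with H3K27ac in BMDM, 69.0%, lay far below the other 4 cell types, which ranged from 84.5% to 89.3%. The points are cell types rather than replicates, and chance alone sets apart about 1 in 20 such groups. Shares and peak widths of every hPTM were searched at both ends, and this was the only value set apart. The share of all protein-coding genes was also lowest in BMDM, 34.0%. This list came from 1 sample and covered 32.8 Mb. The lists of mESC-ser and PIM also came from 1 sample each and held 84.5% and 89.3% of members on 32.0 and 27.4 Mb. The part of the list in this value was not tested.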

How the results depend on the processing

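No paired analysis was possible because the lists were called on pooled replicates, and for the same reason no replicate could be left out. Narrower promoters, starts of protein-coding transcripts alone, a longer overlap or a peak on a start moved none of the summary shares by more than the spread between cell types. Keeping the 5000 peaks of largest total signal gave mean shares of members of 8.18% for H3K18la (8.38% of protein-coding genes). For H3K27ac the share was 28.3% (16.1%), for H3K4me3 50.3% (24.9%) and for all 3 active hPTMs together 5.95% (5.23%). In muscle 1 muscle isoform call was left, and elsewhere Cox7a1 in both stem cell lists and Cox8b in mESC-ser and ADIPO. Trimming all lists of an hPTM to equal bases, largest total signal first, gave 4.02% for H3K18la (6.22% of protein-coding genes), 52.1% for H3K27ac (27%), 1.19% for H3K27me3 (11.7%) and 1.98% for the 3 together (4.27%), with 0 muscle isoform calls in muscle and 2 elsewhere. The same trimming by maximum signal, chosen after seeing the data, gave 4.61% for H3K18la (6.70% of protein-coding genes), 60.2% for H3K27ac (29.8%), 3.17% for the 3 together (4.77%), a mean log2 width ratio of -0.41, and again 0 and 2 isoform calls. Members whose promoters hold no other start had all 3 in 39.5% (25.3% of protein-coding genes). The excess of H3K18la over protein-coding genes, 14.8 points, was -0.192 points with the 5000 peaks, and -2.20 and -2.09 points with equal bases by total and by maximum signal, so it turned in direction, as the 3 together did with equal bases, while H3K27ac stayed above in each. These settings keep fewer peaks by construction, and any further cause was not tested.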
